A study of Sus scrofa domesticus with 16 samples.

Results

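The genes described here carry the vesicle traffic of the cell: the RAB switches, the SNARE proteins that fuse membranes, the synaptotagmins, the coats of transport vesicles, the sorting nexins and the VPS complexes. They were picked by a rule on gene names, which was set with earlier results of these data known. A gene entered if its symbol in the array's annotation was RAB followed by a digit, or began with VAMP, STX, SNAP, SYT, VPS, SNX, COPA, COPB, COPE, COPG, COPZ, SEC or ARF and then a digit or nothing more. Of 6765 genes that the annotation names singly, 115 fit that rule. Each was read from its brightest probe set, and 105 of the 115 passed the filter on dim signal, among 5455 genes that did so in all. The rule uses names alone, while the choice of probe set and the filter use the signal over all arrays.

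A small set of protein families moves cargo through the secretory and endocytic routes of every animal cell. COPII coats bud vesicles from the endoplasmic reticulum, COPI coats return them, RAB proteins name each compartment and recruit its effectors, and SNARE proteins on both membranes zip together to fuse them. In the adrenal medulla the same machinery releases stored catecholamines, because RAB3 proteins, SNAP25, VAMP2 and the calcium sensor synaptotagmin dock and fuse the chromaffin granules.

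Gene expression had been measured in whole adrenal glands of 16 domestic pigs, with 1 Affymetrix porcine array for each animal. Of these, 8 animals were labelled high stress and came from mixing with other pigs of high aggressiveness. The other 8 were labelled low stress and came from mixing with pigs of low aggressiveness. The submitters chose both groups so that they differed in aggressive behaviour and in plasma cortisol, so the group is a selection of animals and not a single treatment dose. Neither age nor sex is given in the labels. Steroid-making cortex and catecholamine-making medulla are both in the tissue. Of 16 listed cortex markers 11 were named singly on the array, and 11 were measured above the filter. Of 23 listed chromaffin markers 14 were named singly on the array, and 12 were measured above the filter. Among those above it were CYP11A1 and STAR for the cortex and PNMT, CHGA and CHGB for the medulla.

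The arrays fell into 2 sets that the labels do not mention. The dap controls, bacterial transcripts added during sample handling, averaged a signal of 3672 on 8 arrays, called the high-spike set here, and 486 on the other 8, the low-spike set. Both sets comprised 4 animals of the high stress group and 4 of the low stress group, so they do not coincide with the stress labels. The 3' to 5' signal ratio of actin, a sign of RNA or labelling quality, was 5.58 ± 0.88 in the high-spike set and 10.3 ± 2.0 in the low-spike set, against 7.47 ± 2.73 in high stress and 8.41 ± 3.09 in low stress animals (SD, n = 8 each). That of GAPDH was 1.46 ± 0.10 in the high-spike set and 1.38 ± 0.08 in the low-spike set, against 1.4 ± 0.05 in high stress and 1.44 ± 0.13 in low stress animals (SD, n = 8 each). Because the sets stand apart, stress differences are given over all arrays and, where it matters, also blocked by set or inside each set alone. All values are log2 of the deposited signal unless stated otherwise, and the signals of different probe sets are not compared with each other.

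No vesicle traffic gene differed detectably between high stress and low stress glands. By limma's moderated test with Benjamini-Hochberg adjustment over all probe sets tested, 0 of the 105 genes passed at an adjusted p under 0.05, as did 0.0% of all genes. At an unadjusted p under 0.05 the count was 0 of 105, beside 3.01% of all genes. The groups overlapped in each of the 105, and of all genes 0.0367% had groups that did not overlap. Differences, given as high stress minus low stress, ran between -0.32 for VPS26B and 0.37 for SNX21, and 61 of the 105 lay within 0.1 on the log2 scale. The 95% confidence interval lay inside ±0.5 for 79 genes, so for those a change of that size or more in either direction falls outside the interval. The median standard error of a difference was 0.14.

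By sign, 65 genes had higher values in high stress and 40 had lower ones, with a median difference of 0.03 beside 0.0006 over all genes. That split depends on how arrays are scaled. It was 60 higher to 45 lower after quantile normalization (median 0.02, all genes 0.02), and 84 to 21 after centring each array on its median (median 0.10, all genes 0.07). Relative to all genes the shift was therefore at most a few hundredths of a log2 unit in each scaling.

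**Figure D1:**
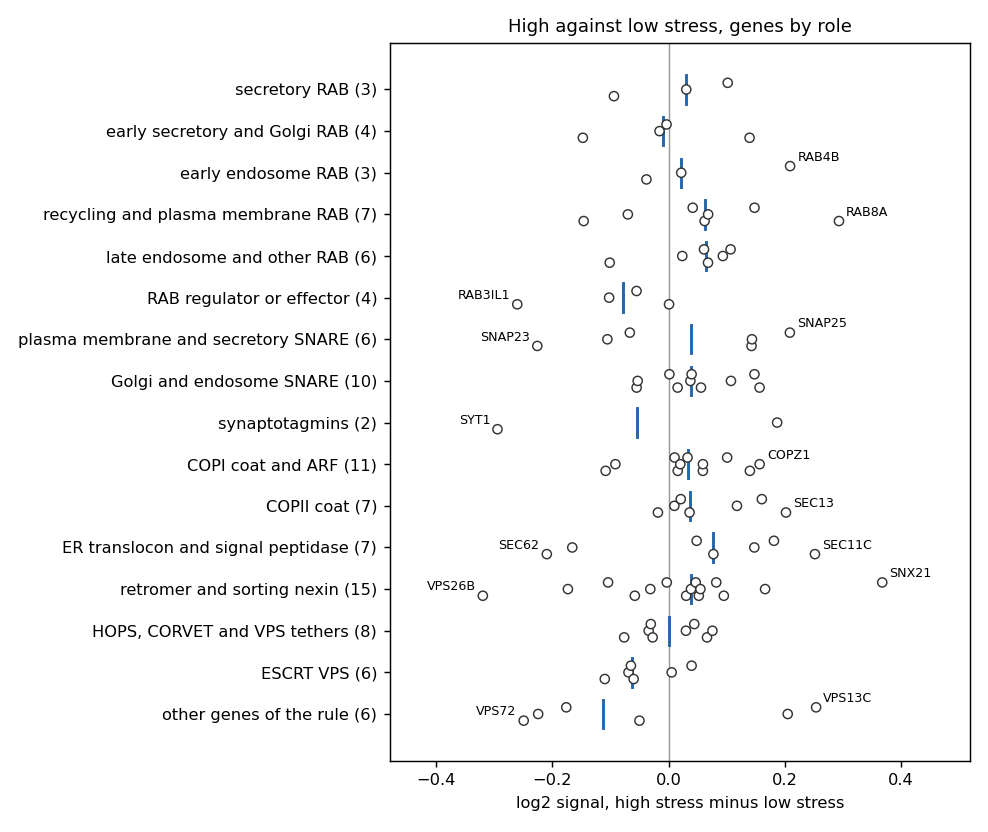
Difference in log2 signal, high stress minus low stress (horizontal axis), of 105 vesicle traffic genes grouped by role (rows, with the number of genes). Each circle is a gene and each blue bar the median of its row; open circles did not pass, and none is filled. Points scatter on both sides of 0, between VPS26B at -0.32 and SNX21 at 0.37.

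The RAB proteins of regulated secretion did not separate the groups. RAB3A, which tethers secretory granules before release, had a low of 8.0, a median of 8.95 and a high of 9.30 in high stress, against 8.43, 8.73 and 9.11 in low stress (difference 0.03, 95% confidence interval -0.36 to 0.43). The high stress animals thus spread beyond the low stress range on both ends. RAB3D, another granule RAB, lay at 10.12, 10.27 and 10.68 in high stress and at 10.04, 10.18 and 10.43 in low stress (0.10, -0.10 to 0.30). RAB27B, which acts in granule docking, had 7.79, 8.58 and 9.52 in high stress and 8.27, 8.80 and 9.25 in low stress (-0.09, -0.59 to 0.40). Its value was 0.10 within the high-spike set and -0.29 within the low-spike set.

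RAB26, a RAB of granule maturation and of synaptic vesicles, was too dim to pass the filter but showed the widest gap of the 115. Its signal on the linear scale was at least 36.6 and at most 105 in high stress, against 10.2 to 40.9 in low stress. On the log2 scale the animals ran from 5.19 through a median of 5.50 to 6.72 in high stress, and from 3.35 through 4.71 to 5.35 in low stress. The low stress mean was exceeded by each of the 8 high stress animals, though the ranges still overlapped between 5.19 and 5.35. With no filter the difference was 1.03 (SE 0.29, 95% confidence interval 0.42 to 1.64; unadjusted p = 0.00247), and it did not pass limma (adjusted p = 0.999). It was the only 1 of the 115 genes at an unadjusted p under 0.05 in that fit, in which 3.12% of all genes were. Since most of these signals lie below the filter value of 71.1, the size of the difference is uncertain, and RAB26 was singled out after its values were seen.

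Of 4 regulators of RAB proteins 3 were lower in value, and 2 after median centring. RAB3IL1, an exchange factor that activates RAB3A and RAB8 proteins, ran from 5.68 through 6.37 to 6.77 in high stress and from 6.06 through 6.60 to 6.98 in low stress (-0.26, SE 0.16). In 6 of 8 high stress animals it was under the low stress mean. The difference was close to 0 within the high-spike set and -0.52 within the low-spike set (the interaction did not pass limma). RAB3IP, the related exchange factor of RAB8 proteins, had -0.10 (SE 0.12). RAB3GAP1 and RAB3GAP2, the subunits of the RAB3 GTPase-activating complex, had -0.06 (SE 0.17) and 0.00093 (SE 0.11).

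SNARE proteins of the plasma membrane and of granules also overlapped between the groups, with 3 higher and 3 lower. SNAP25, the plasma membrane SNARE of chromaffin and nerve cells, ran from 10.27 through 11.29 to 11.58 in high stress and from 10.05 through 11.03 to 11.52 in low stress (0.21, SE 0.22, 95% confidence interval -0.26 to 0.67). SNAP23, its counterpart in most other cells, ran from 8.22 through 8.88 to 9.95 in high stress and from 8.62 through 9.30 to 10.01 in low stress (-0.23, SE 0.28). VAMP2, the granule SNARE that pairs with SNAP25, ran from 8.14 through 8.54 to 8.79 in high stress and from 8.20 through 8.63 to 8.89 in low stress (-0.11, SE 0.13). The widely expressed VAMP3 of recycling endosomes had 0.14 (SE 0.11), STX4 of the plasma membrane 0.14 (SE 0.13), and STX11, known from granule release in immune cells, -0.07 (SE 0.19). RAB27A, STX1A and the synaptotagmins SYT4, SYT7 and SYT11 were not analysed here.

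Of the synaptotagmins, SYT1, a fast calcium sensor of vesicle fusion, had a low of 7.62, a median of 8.53 and a high of 8.89 in high stress, against 7.92, 8.67 and 9.72 in low stress (-0.29, SE 0.24). High stress replicates 4 and 6 were lowest and low stress replicate 3 was highest. SYT5, which sits on dense-core granules, had 0.19 (SE 0.28). SYT2 was below the filter, with log2 signals of 4.69 to 7.01 in high stress and 5.52 to 6.49 in low stress.

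Coat genes of the early secretory pathway leaned towards high stress in value about as far as the 105 genes together, without passing the test. Medians were 0.03 for COPI and ARF and 0.04 for COPII genes, beside 0.03 over the 105. COPZ1, the zeta subunit of the COPI coat, had the second smallest p of the 105. It ran from 11.64 through 11.81 to 11.96 in high stress and from 11.48 through 11.64 to 11.79 in low stress (1.11-fold, log2 0.16, SE 0.08, limma adjusted p = 0.999). In 7 of 8 high stress animals it exceeded the low stress mean. COPG1, the gamma subunit, had 0.14 (SE 0.10), and in 4 of 8 high stress animals it lay above the low stress mean. COPA, COPB1, COPG2 and COPZ2 lay between -0.09 and 0.03. Of the ARF proteins that recruit the coat, ARF1, ARF2, ARF4 and ARF6 lay between 0.02 and 0.10, and ARF5 had -0.11. In all, 9 of 11 COPI and ARF genes were higher in value (median 0.03), but only 6 of 11 after quantile normalization (median 0.0087). COPB2 was below the filter.

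The COPII coat showed 6 of 7 genes higher in value, with a median of 0.04, and 4 of 7 after quantile normalization. SEC13, which forms the outer cage of the coat with the SEC31 proteins, ran from 10.60 through 10.94 to 11.30 in high stress and from 10.42 through 10.76 to 11.10 in low stress (0.20, SE 0.14). SEC31B had 0.16 (SE 0.15) and SEC31A 0.04 (SE 0.08). The cargo-binding subunits SEC24C and SEC24D had 0.01 (SE 0.11) and 0.12 (SE 0.12), and the inner-shell subunits SEC23A and SEC23B had -0.02 and 0.02.

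At the entrance of the pathway, SEC11C, a catalytic subunit of signal peptidase, ran from 11.99 through 12.39 to 13.00 in high stress and from 11.81 through 12.18 to 12.54 in low stress (1.19-fold, log2 0.25, SE 0.15). Its paralog SEC11A had 0.05 (SE 0.10). The subunits of the SEC61 channel through which new proteins enter the reticulum had 0.08 for SEC61A1, 0.18 for SEC61B and 0.15 for SEC61G. SEC62 and SEC63, the partners of that channel, pointed the other way at -0.21 (SE 0.31) and -0.17 (SE 0.21). Dimmer SEC63 probe sets past the filter had larger values of the same sign, at -0.40 (SE 0.27) and -0.53 (SE 0.25). Within this group of 7 genes the channel subunits and the partners therefore differed in sign, and none passed.

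Removing the difference between the sets of arrays narrowed the errors of several of these genes. With the set as a block, 3 of the 105 genes were higher at an unadjusted p under 0.05, beside 3.39% of all genes, and 1 was lower, beside 2.8%. The 3 were SEC13 (0.20, SE 0.07), SEC11C (0.25, SE 0.10) and COPZ1 (0.16, SE 0.07), and the lower one was VPS26B (-0.32, SE 0.13). After limma's adjustment 0 of the 105 passed, against 0.0183% of all genes, and the smallest adjusted p among the 4 was 0.733. As shares, 2.86% and 0.952% of the vesicle traffic genes were below the shares over all genes. Within the high-spike and low-spike sets SEC13 had 0.18 and 0.23, SEC11C 0.23 and 0.27, COPZ1 0.12 and 0.19, and VPS26B -0.43 and -0.21.

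**Figure D2:**
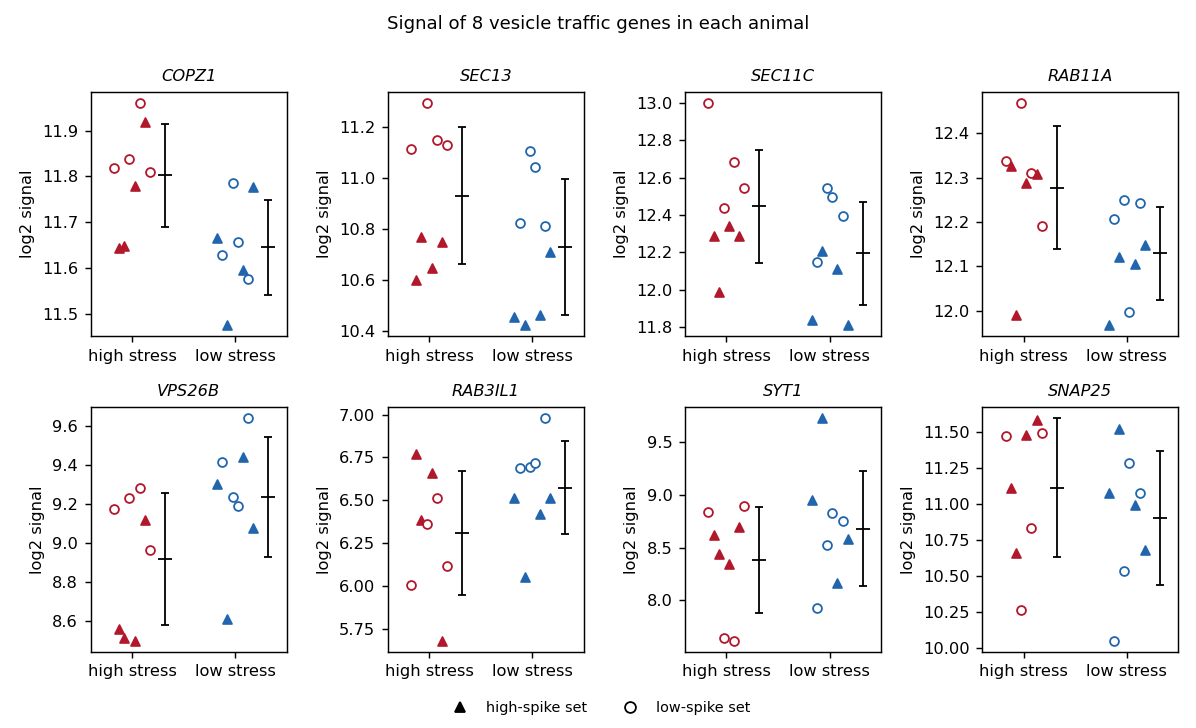
Log2 signal (vertical axes, which differ in range and do not start at 0) of 8 genes in each animal, high stress in red at the left and low stress in blue at the right of each panel; filled triangles are arrays of the high-spike set, open circles of the low-spike set, and black bars the mean ± SD of 8 animals. The groups overlap in every panel, and in SEC13 the circles lie above the triangles in both groups.

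RAB proteins of the Golgi and endosomes gave small differences in both directions. RAB11A, the RAB of recycling endosomes, ran from 11.99 through 12.31 to 12.47 in high stress and from 11.97 through 12.13 to 12.25 in low stress (0.15, SE 0.09). In 7 of 8 high stress animals it was above the low stress mean, while high stress replicate 3 was near the bottom of both groups. A second RAB11A probe set past the filter had -0.04 (SE 0.19). RAB4B of early endosomes had 7.31, 7.76 and 8.11 in high stress and 7.15, 7.55 and 7.82 in low stress (0.21, SE 0.13). RAB8A, which directs vesicles to the plasma membrane, had 0.29 (SE 0.23). That value came from the low-spike set, at 0.62, and was -0.03 in the high-spike set. RAB35, which also recycles cargo to the surface, had -0.15 (SE 0.09), although the mean over its probe sets was 0.02.

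RAB7A and RAB24, which act on late endosomes and autophagosomes, had 0.09 (SE 0.08) and 0.11 (SE 0.09). The Golgi and reticulum RABs RAB1A, RAB2A and RAB18 had -0.0034, -0.02 and -0.15, and RAB34 had 0.14 (SE 0.15). RAB14 and RAB22A of endosomes had 0.02 and -0.04. RAB23, known for its role in hedgehog signalling and cilia, had -0.10 (SE 0.11).

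The group listed as Golgi and endosome SNARE genes also takes in the related gene SEC22C, and STX18 of the reticulum. Of its 10 genes past the filter, 8 were higher in value, with a median of 0.04. STX8, a SNARE of late endosome fusion, ran from 11.20 through 11.52 to 11.68 in high stress and from 11.09 through 11.35 to 11.58 in low stress (0.15, SE 0.10). It lay above the low stress mean in 7 of 8 high stress animals. VAMP7, a SNARE of lysosomes, had 0.16 (SE 0.21), with high stress replicate 1 at 7.99 far below the other high stress animals. STX5, STX6, STX10, STX18, SEC22C, SNAP29, SNAP47 and VAMP8 lay between -0.05 and 0.11.

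The retromer and sorting nexins, which retrieve receptors from endosomes, held both ends of the range. VPS26B, a subunit of the retromer, had the smallest p of the 105. It ran from 8.50 through 9.04 to 9.28 in high stress and from 8.61 through 9.27 to 9.64 in low stress (0.80 of the low stress level, log2 -0.32, SE 0.16, 95% confidence interval -0.65 to 0.01, limma adjusted p = 0.999). In high stress 3 of the 4 arrays of the high-spike set lay below every low stress animal. The paralog VPS26A had -0.03 (SE 0.22) and the shared subunit VPS29 -0.0030 (SE 0.09).

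SNX21, a sorting nexin of early endosomes, had the largest positive value. It ran from 6.66 through 7.20 to 8.01 in high stress and from 5.71 through 7.02 to 7.72 in low stress (0.37, SE 0.23). Without low stress replicate 4, which held the lowest value, the difference was 0.19, the lowest of all values with 1 animal left out. SNX1 and SNX6, membrane-bending partners of the retromer, had -0.10 (SE 0.10) and -0.17 (SE 0.16), and SNX5 of the same kind had 0.08 (SE 0.09). The other sorting nexins, SNX3, SNX10, SNX11, SNX12, SNX14, SNX17, SNX22 and SNX24, lay between -0.06 and 0.17.

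Genes of the VPS complexes that tether and remodel endosomes lay close to 0. The 8 genes grouped as HOPS, CORVET and related tethers lay between -0.08 and 0.08, with VPS11 at 0.08 (SE 0.10) and VPS18 at 0.07 (SE 0.11). That group includes VPS45, which is not itself a tether subunit. The 6 ESCRT genes, which sort ubiquitylated cargo into internal vesicles, lay between -0.11 (VPS36, SE 0.16) and 0.04 (VPS25). Their median was -0.06, and it turned to 0.01 after median centring. Of the remaining genes caught by the name rule, SEC14L1, a lipid-binding protein, had -0.22 (SE 0.17), VPS13C and VPS13D, which transfer lipid between organelles, had 0.25 (SE 0.32) and -0.18 (SE 0.16), and VPS72, a chromatin protein despite its symbol, had -0.25 (SE 0.25).

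Whether the stress difference itself depended on the set of arrays was tested with an interaction term. Of the 105 genes 2 had an interaction at an unadjusted p under 0.05, beside 2.29% of all genes, and 0 passed limma after adjustment. SNAP91, a clathrin adaptor of synaptic vesicles, had a stress difference of -0.21 in the high-spike set and 0.62 in the low-spike set. SNX11, named after its value was seen, had -0.31 and 0.64 in the same order. Over all arrays SNAP91 ran from 7.37 through 7.67 to 8.20 in high stress and from 6.96 through 7.57 to 8.19 in low stress (0.21, SE 0.18).

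Other genes of the same pathways, which the name rule does not catch, gave a like picture. Of 84 listed genes on the array, which comprise fusion cofactors, other SNARE proteins, clathrin and its adaptors, cargo receptors, tethers, RAB and ARF regulators and ESCRT partners, 80 passed the filter. Of those, 48 were higher and 32 lower in value, with a median of 0.02, and 0 passed limma after adjustment. AP2S1, the small subunit of the clathrin adaptor at the plasma membrane, was the only 1 of the 80 at an unadjusted p under 0.05, beside 3.01% of all genes. It had 11.82 ± 0.42 (SD, n = 8) in high stress against 11.47 ± 0.24 (SD, n = 8) in low stress glands (0.35, SE 0.17). SURF4, a cargo receptor of the reticulum, had 0.24 (SE 0.11), and KDELR2, which returns escaped reticulum proteins, 0.16 (SE 0.09). YKT6, a lipid-anchored SNARE, had 0.25 (SE 0.17). BET1L, a Golgi SNARE, had -0.13 (SE 0.11). Among fusion cofactors, SCFD1, a partner of SNARE proteins between reticulum and Golgi, had -0.32 (SE 0.37), and SNAPIN, which binds SNAP25, 0.06 (SE 0.12). AP1M1, a subunit of the clathrin adaptor of the Golgi and endosomes, had -0.28 (SE 0.19), and COG2, of a Golgi tether, -0.18 (SE 0.12). The small GTPases ARL1 and ARL3 had 0.09 (SE 0.10) and 0.07 (SE 0.10), and the ESCRT subunits CHMP2A and SNF8 0.18 (SE 0.16) and 0.13 (SE 0.14). EEA1, the early endosome tether, had the widest value at -0.64 (SE 0.33), with 6.27 ± 0.77 in high stress and 6.91 ± 0.65 in low stress.

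The difference between the 2 sets of arrays was far larger than that between the stress groups. With the stress group as a term, 21 of the 105 genes were higher in the high-spike set, beside 16.4% of all genes, and 29 were lower, beside 24.2%. As shares these are 20% and 27.6% of the vesicle traffic genes, and the median was -0.09, beside -0.11 over all genes. By these numbers the vesicle traffic genes moved with the sets about as genes in general did.

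RAB18, RAB14 and SNAP23 were the higher genes with the smallest p. RAB18, a RAB of the reticulum and lipid droplets, averaged 12.16 ± 0.18 in the high-spike set and 11.21 ± 0.12 in the low-spike set (SD, n = 8 each; log2 0.95, 1.94-fold, limma adjusted p = 1.70e-06). RAB14 averaged 9.21 ± 0.20 in the high-spike set and 8.23 ± 0.25 in the low-spike set (0.98, 1.97-fold, limma adjusted p = 3.06e-05). SNAP23 averaged 9.72 ± 0.33 in the high-spike set and 8.69 ± 0.27 in the low-spike set (1.03, limma adjusted p = 6.30e-05). The ranges of RAB18 and of RAB14 did not overlap between the sets. This was not particular to them, since other vesicle traffic genes did not overlap either. Among them were VPS72, SEC61B, SEC13, VAMP8, VPS52, SNAP29, VPS25 and STX4, lower in the high-spike set, and SEC24D, higher in it. Apart from VPS72, SEC61B and SEC13, these are named after their values were seen. The share of all genes without overlap between the sets was not counted.

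VPS72, SEC61B and SEC13 were the lower genes with the smallest p. VPS72 was 7.42 ± 0.31 in the high-spike set and 8.35 ± 0.21 in the low-spike set (-0.93), SEC61B 12.54 ± 0.17 and 13.12 ± 0.18 (-0.58), and SEC13 10.60 ± 0.14 and 11.06 ± 0.16 (-0.46), in the same order (SD, n = 8 each). A dimmer VPS72 probe set past the filter had only -0.02 between the sets (limma adjusted p = 0.931). At the channel of the reticulum, SEC62 (1.1) and SEC63 (0.70) were higher in the high-spike set while SEC61A1 (-0.25), SEC61B (-0.58) and SEC61G (-0.42) were lower. SEC62, SEC63 and the SEC61 subunits A1 and G are named here after their values were seen. Actin's 3' to 5' ratio moved with the same sets, and its part in these differences was not tested.

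**Figure D3:**
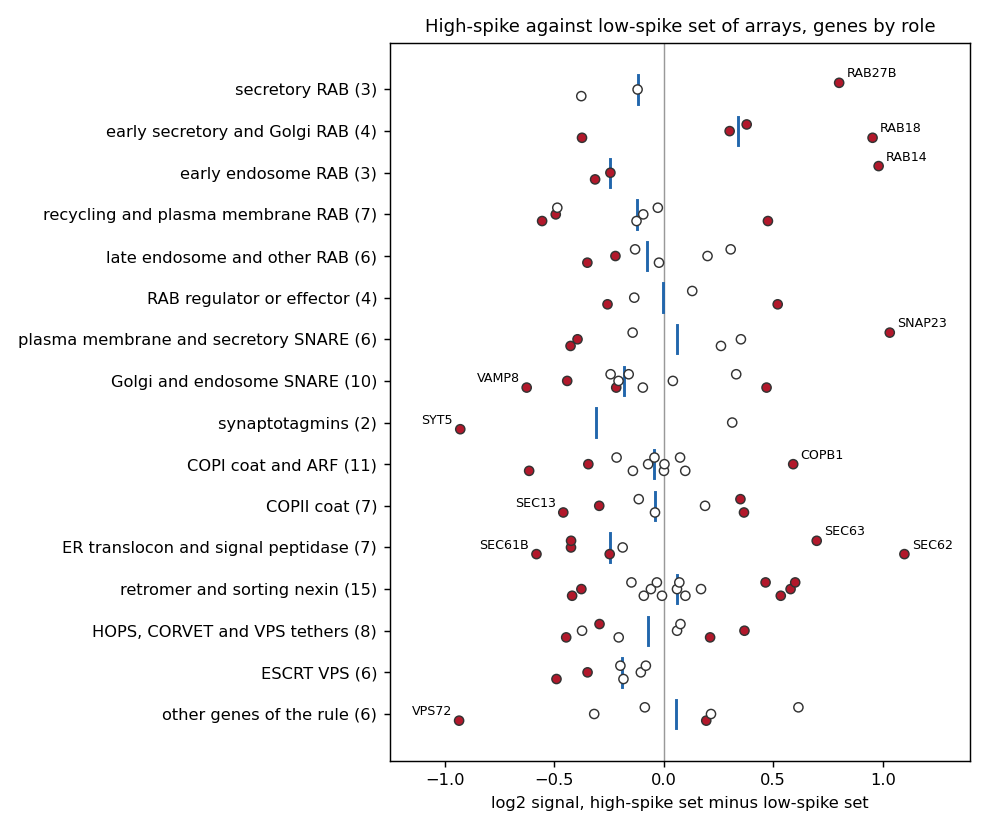
Difference in log2 signal between the sets of arrays, high-spike minus low-spike (horizontal axis), of the same 105 genes by role; filled circles passed at an adjusted p under 0.05 and blue bars are medians of rows. Genes of 1 role lie on both sides of 0, as SEC62 at 1.1 and SEC61B at -0.58 do.

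Probe sets of the same gene did not always give the same direction. Past the filter, 35 of the 105 genes had further probe sets, 43 in all. For the stress difference 20 of the 43 had the opposite sign to the brightest probe set, and for the set difference 15 of 43 did. Only RAB3GAP2 was called in opposite directions between the sets, at -0.26 by its brightest probe set and 0.43 by another. VPS72 and VPS52 were called by their brightest probe set, at -0.93 and -0.44. Their other probe sets past the filter were not called, at -0.02 and 0.06. Differences of this size therefore also depend on the probe set that is read.

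Among animals, SNAP25 followed the markers of the adrenal medulla, and few others of the 105 genes came near it. Chromaffin content was read as the mean log2 signal of 12 markers of chromaffin cells: DDC, PNMT, CHGA, CHGB, SCG2, SCG3, SCG5, GAL, CARTPT, PCSK1, PCSK1N and CYB561. This mean was 11.12 ± 0.36 in high stress animals, between 10.58 and 11.65, and 11.00 ± 0.32 in low stress animals, between 10.52 and 11.52. In a bulk gland, fewer chromaffin cells and less RNA per cell cannot be told apart. The cortex mean of 11 markers varied less, at 12.70 ± 0.11 in high stress and 12.67 ± 0.15 in low stress. Marker means of fibroblasts and capsule differed by -0.32 and of smooth muscle by 0.19 between high stress and low stress, and their part in the stress differences was not tested. With the chromaffin mean as a covariate the median stress difference of the 105 genes was 0.02, and 0 passed.

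Of the 105 genes, SNAP25 followed the chromaffin markers most closely. Across the 8 arrays of the high-spike set its Pearson r with the marker mean was 0.75 (exact permutation p = 0.0311, Spearman 0.79, exact permutation p = 0.0279). Across the 8 arrays of the low-spike set it was 0.93 (exact permutation p = 0.00131, Spearman 0.90, exact permutation p = 0.00456). Without the 2 arrays farthest from the median of the marker mean, r was 0.65 in the high-spike set and 0.86 in the low-spike set. Over 10910 relations, that is 5455 genes in 2 sets, no adjusted p fell below the threshold, and the smallest of the 105 genes was 0.499 (exact permutation), for SNAP25 in the low-spike set.

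In the 2 animals at the ends of the low-spike set, low stress replicate 2 had a marker mean of 10.52 with SNAP25 at 10.05, and high stress replicate 8 had 11.65 with 11.49. In the high-spike set, high stress replicate 3 had 10.58 with SNAP25 at 10.66, and high stress replicate 7 had 11.41 with 11.58. In both sets the animal with the highest marker mean thus also had SNAP25 near the top of its range.

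Using all 16 arrays with set and stress group as terms, SNAP25 rose by 1.20 log2 units for each log2 unit of the marker mean (SE 0.20, 95% confidence interval 0.77 to 1.62, limma adjusted p = 0.0207). It was the only 1 of the 105 genes to pass, beside 0.348% of all genes, and 6 of those 19 genes were themselves chromaffin markers of the mean. At an unadjusted p under 0.05 the count was 5 of 105, beside 5.43% of all genes. The call was lost without low stress replicate 2 or 5 or high stress replicate 3, 4, 7 or 8, with slopes of 1.11 to 1.24 and limma adjusted p of 0.0503 to 0.137. It was also lost when the granin and neuropeptide genes were taken out and 3 markers remained (slope 1.18, limma adjusted p = 0.130). Of the 80 listed pathway genes outside the name rule, 1 passed as well. This was SYN2 of the fusion cofactors, named after its value was seen, with a slope of 1.02 (SE 0.16, limma adjusted p = 0.0200). Its r was 0.83 in the high-spike set and 0.88 in the low-spike set, close to those of SNAP25.

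SYT1 had a slope of the same size, 1.20 (SE 0.25, limma adjusted p = 0.0691), which missed the threshold. It passed after quantile normalization (1.27, limma adjusted p = 0.0326) and without low stress replicate 3 (1.11, limma adjusted p = 0.0423). Its r was 0.45 in the high-spike set (exact permutation p = 0.270) and 0.83 in the low-spike set (exact permutation p = 0.0155). In the high-spike set that relation rested on the outer arrays, since r was 0.10 without the 2 farthest.

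RAB3A had a slope of 0.60 (SE 0.24, limma adjusted p = 0.711) and RAB3IP one of 0.41 (SE 0.15, limma adjusted p = 0.639). For RAB3A r was 0.34 in the high-spike set (exact permutation p = 0.407) and 0.85 in the low-spike set (exact permutation p = 0.00809). For RAB3IP r was 0.33 (exact permutation p = 0.443) and 0.80 (exact permutation p = 0.0175) in the same order. In the high-spike set both fell to 0.02 or below without the 2 farthest arrays. SNX3, which sorts cargo with the retromer, had r of 0.53 in the high-spike set (exact permutation p = 0.176) and 0.79 in the low-spike set (exact permutation p = 0.0175), with a slope of 0.21 (SE 0.11).

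**Figure D4:**
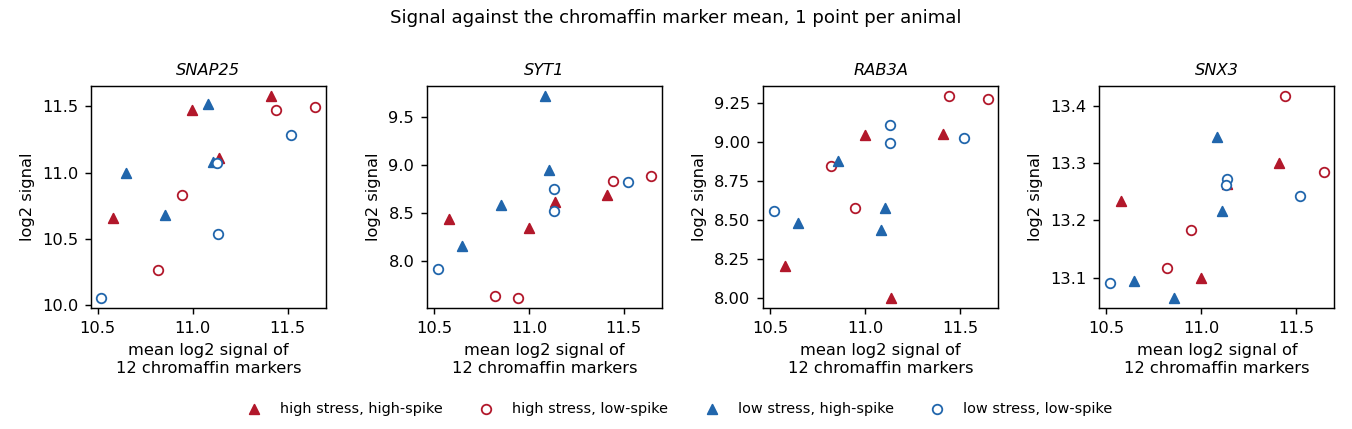
Log2 signal of 4 genes (vertical axes, which differ in range) against the mean log2 signal of 12 chromaffin markers (horizontal axes), with 1 point per animal; triangles are the high-spike and circles the low-spike set, red is high stress and blue is low stress. SNAP25 climbs along the marker mean in both sets, while RAB3A and SYT1 do so more tightly in the low-spike set.

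Further exocytosis genes had weaker or unlike values. VAMP2 had r of 0.13 in the high-spike set and -0.28 in the low-spike set, and a slope of 0.0012 (95% confidence interval -0.29 to 0.29), whose interval leaves out the slope of SNAP25. SNAP23 had -0.60 and -0.12 in the same order, and STX4 0.28 and -0.04. RAB3D went with the markers in the high-spike set (r = 0.87, exact permutation p = 0.0064, adjusted over all relations 0.752) and against them in the low-spike set (r = -0.55, exact permutation p = 0.154). RAB27B had -0.31 and -0.36, and SYT5 -0.03 and -0.06.

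The 3 lowest mean r belonged to SEC63, SEC31B and RAB2A. SEC63 had r of -0.46 in the high-spike set and -0.60 in the low-spike set, SEC31B -0.39 and -0.65, and RAB2A -0.46 and -0.37, with no exact permutation p under 0.05 for Pearson's r. The slope of SEC31B was -0.59 (SE 0.19, limma adjusted p = 0.462).

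Taken over all 105 genes, the values of r lay around 0. The median r with the marker mean was 0.03 in the high-spike set and -0.10 in the low-spike set, beside 0.01 over all genes in each. An exact permutation p under 0.05 was reached by 3 genes in the high-spike set and 9 in the low-spike set, while 5.28% and 4.88% of all genes did so. Of the 105, SNAP25, SYT1, SNX3 and SEC11C had r over 0.4 in both sets, a number to be set beside 4.89% of all genes.

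**Figure D5:**
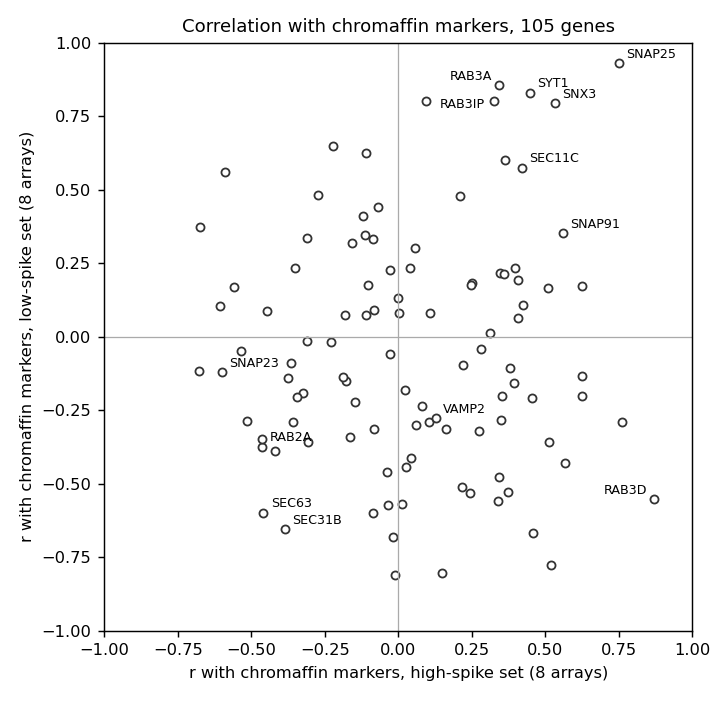
Pearson r of each of 105 genes with the chromaffin marker mean, across the 8 arrays of the high-spike set (horizontal axis) and the 8 of the low-spike set (vertical axis). SNAP25 stands alone at the upper right with 0.75 and 0.93, RAB3D lies at the lower right, and the other genes spread over the whole plot.

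Correlations between pairs of vesicle traffic genes were taken across the 8 arrays of each set and are given as a description. The median r over 5460 pairs was 0.02 in the high-spike set and 0.02 in the low-spike set, beside 0.02 and 0.0004 over all gene pairs. Within roles, the 21 pairs of COPII genes had a median r of 0.26 in the high-spike set and 0.23 in the low-spike set, and the 45 pairs of Golgi and endosome SNARE genes had 0.15 and 0.22. After quantile normalization the COPII pairs had 0.27 in the high-spike set and 0.15 in the low-spike set, and the Golgi and endosome SNARE pairs 0.23 and 0.28. The 55 pairs of COPI and ARF genes had 0.14 in both sets, and 0.02 in the high-spike set after quantile normalization. Pairs of HOPS, CORVET and tether genes had 0.37 in the high-spike set and 0.09 in the low-spike set, and ESCRT pairs 0.43 and -0.12. After quantile normalization the tether pairs had 0.44 in the high-spike set and 0.10 in the low-spike set, and the ESCRT pairs 0.48 and 0.09. Other roles had medians below 0. The 3 pairs of secretory RAB genes had -0.22 in the high-spike set and -0.48 in the low-spike set. The 15 pairs of plasma membrane and secretory SNARE genes had -0.31 in the high-spike set and 0.01 in the low-spike set, and -0.27 and -0.20 after quantile normalization.

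Of the 5460 pairs, 5 had r over 0.8 in both sets, a share of 0.0916% beside 0.0773% of all gene pairs. They were RAB10 with VPS26A (0.91 in the high-spike and 0.86 in the low-spike set), SNX14 with RAB27B (0.83 and 0.84), SEC24C with VPS39 (0.87 and 0.83), COPZ1 with RAB7A (0.81 and 0.86), and SEC63 with SNX14 (0.87 and 0.80). All 5 join genes of different roles. The next in order also did so, with COPB1 and SNX6 at 0.89 in the high-spike and 0.80 in the low-spike set, ARF1 and SNX12 at 0.84 and 0.79, and SEC62 and SNAP23 at 0.93 and 0.79. Further down, and chosen after their values were seen, SEC61A1 and SEC61B of the reticulum channel had 0.88 and 0.71, VPS18 and VPS41 of the HOPS tether 0.78 and 0.89, and SYT1 and SNX3 0.70 and 0.79. Points in these correlations share array, scaling and probe design, and no p is given for them.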

How the data were processed

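Per the submitters' processing notes, the authors used Affymetrix Expression Console 1.1.1 with MAS5, and each deposited value is an intensity on the linear scale. The mean of every deposited column, trimmed by 2% at both ends, was 500 to the nearest whole number, so arrays had been scaled singly. Median signals per array lay between 116 and 147, and the number of arrays limits precision. Detection calls were not used here.

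Intensities were taken to log2. After 124 control probe sets were set aside, probe sets below the 40th percentile of mean log2 signal (6.15) were left out. The 14399 others were tested by lmFit and eBayes (limma 3.58.1, R 4.3.3), two-sided, with Benjamini-Hochberg adjustment over all of them. Names come from the platform annotation. The 198 probe sets that name several genes were assigned to no gene, and 5 of them name a gene that fits the name rule. The genes, role lists and pathway lists were chosen with earlier results of these data known. Named are the 12 genes with the smallest p in each direction, 2 per role and pathway list, 3 per direction between the sets, those with the 5 highest and 3 lowest mean r, and the core exocytosis genes. Others complete a group or are said to be chosen after their values were seen.

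The sets of arrays were found from 3 dap probe sets. Correlations were taken within each set, with exact permutation over all 40320 orders of its arrays. Their adjustment covered all genes and both sets, wider than the members alone as first planned. Slopes on the marker mean were added after the data were seen. On simulated data with 14399 probe sets, limma's comparison of the stress groups recovered 26.9% of differences of log2 0.5, 80.3% of those of 1 and 91.5% of those of 1.5. For slopes of these sizes the shares were 6.87%, 50.4% and 77.3%. Each simulated run changed many probe sets at once and drew independent errors. The shares may therefore be too high for a single changed gene. Plots used matplotlib 3.10.9 (Python 3.11.15).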

Additional observations from a re-analysis of the deposited data

Results flagged for a closer look

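In each stress group, the highest or lowest animal of each named gene was set against the other 7 by Dixon's ratio. Of 92 groups tested 4 passed, where chance flags about 1 in 20. SNX21 was at 5.71 in low stress replicate 4, against 6.84 to 7.72 in the other low stress animals. VAMP7 was at 7.99 in high stress replicate 1, against 8.85 to 9.62 in the others. VPS18 was at 7.97 in low stress replicate 3, against 8.46 to 8.72. RAB3D was at 10.68 in high stress replicate 6, against 10.12 to 10.34. All values are log2 signals, and the 4 animals differ.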

How the results depend on the processing

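None of the vesicle traffic genes passed for the stress difference under any of the 16 alternatives or with any 1 animal left out. The count at an unadjusted p under 0.05, 0 in the report, was 1 with no filter (0.87%, beside 3.12% of all genes), 1 with an intensity trend and robust prior (0.952%, beside 3.3%), 4 with the set as a block (3.81%, beside 6.2%), 5 within the low-spike set (4.76%, beside 6.45%), 4 with the block and quantile normalization (3.81%, beside 6.01%), 11 with the block and median centring (10.5%, beside 8.6%), and 0 to 4 with 1 animal left out. Of 727 values of 46 named genes, 21 changed sign. Quantile normalization, with or without the block, gave SNX3 -0.00509. Median centring, with or without the block, gave RAB2A 0.057, VPS37B 0.0039 and RAB22A 0.035. Within the low-spike set RAB2A had 0.022, RAB14 -0.0011 and VPS36 0.024. Within the high-spike set RAB8A had -0.034, SNAP91 -0.21, RAB23 0.056, RAB3A -0.018, VPS11 -0.023 and RAB27B 0.10. The chromaffin covariate gave RAB3A -0.056 and RAB2A 0.013, and the mean over probe sets gave RAB35 0.018 and VPS11 -0.00247. With 1 animal left out the sign changed in RAB2A (-0.051 to 0.025), RAB14 (-0.080 to 0.16), RAB22A (-0.084 to 0.0099), RAB3A (-0.042 to 0.14), VPS18 (-0.0086 to 0.098) and RAB27B (-0.21 to 0.038). The causes were not tested. The count of slopes past the threshold, 1 in the report, was 2 after quantile normalization, 0 without granin and neuropeptide genes, 0 with cortex markers in their place, and 0 to 2 with 1 animal left out. SNAP25's slope was 1.18 without the granin and neuropeptide genes, -1.43 on the cortex markers (limma adjusted p = 0.661) and 1.11 to 1.27 with 1 animal left out. No paired analysis was possible because the replicate numbers follow accession order and the labels give no pair numbers. The first digit of the animal number, whose meaning the labels do not give, is shared by 2 high stress and 2 low stress animals each. As a block it gave 0 at an unadjusted p under 0.05 (beside 2.86% of all genes), and together with the set, chosen after seeing the data, 3 (2.86%, beside 6.05%), which were SEC13, SEC11C and VPS26B.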
